A study of Mus musculus with 99 samples.

Results

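The hippocampus of 9-month-old mice without progranulin (KO, both copies of Grn lost) was compared with that of wild-type mice (WT, Grn +/+) of the same age. All arrays labelled with that region, age and genotype were taken, which gave 3 KO and 3 WT arrays of the 99 arrays in the series, each array from 1 animal. The study measured total RNA from cortex, cerebellum and hippocampus of KO, heterozygous (Het, Grn -/+) and WT mice at 2, 6 and 9 months. Each RNA sample was labelled with biotin and hybridised to an Illumina bead array, which reports a brightness for each probe sequence. The labels give 2 KO animals as male and 1 as female, and all 3 WT animals as male. The mice were untreated, and the sources used here do not give the strain, how the Grn allele was made or whether the animals were littermates. The 3 Het animals of the same age (all labelled male) and the KO and WT arrays of the other ages and regions are used beside the comparison. All levels are log2 intensities after background correction and quantile normalisation, and all differences are KO minus WT on that log2 scale.

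Progranulin is a secreted glycoprotein made in the brain mainly by microglia and neurons. It reaches the lysosome with the help of sortilin and prosaposin, and is cut there into granulins. In people, loss of a single copy of GRN is a known cause of frontotemporal dementia, and loss of both copies causes a neuronal ceroid lipofuscinosis, a lysosomal storage disease. Microglia are the resident macrophages of the brain, and mice that lack the gene are known for microglial activation with age.

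Some features of the 6 arrays bear on every result. Their median raw intensities lay between 203.6 and 257.8, and the normalised profiles correlated with each other at 0.982 to 0.993 over all probes. KO replicate 2, labelled male, had an Xist level of 8.65 against 8.15 in the female KO replicate 3 and 6.21 to 6.65 in the other 4 arrays. Its Eif2s3y level was 6.11, and its cortex and cerebellum arrays showed the same female pattern, so it goes against its sex label. The same array lay slightly nearer to the median profile of the other cortex arrays (correlation 0.948 over the 1000 most variable probes) than to that of the hippocampus (0.941), and the cortex array of that animal nearer to the hippocampus (0.914) than to the cortex (0.906). Whether the 2 arrays of this animal were exchanged was not tested, and its values, cortex markers included, are given with that doubt. In all, 10 of the 32 hippocampus arrays lay nearer to the cortex profile, KO replicate 2 being the only such array among the 6. WT replicate 3 had a haemoglobin alpha (Hba-a1) level of 12.14, against 7.36 to 8.49 in the other 5. KO and WT arrays shared no slide (3 slides for KO, 2 for WT), so the slide and the genotype cannot be told apart within the 6 arrays. Of the cerebellum markers, Pcp2 lay at 6.17 to 7.71 in the hippocampus against 12.93 to 13.43 on the KO and WT cerebellum arrays, while Pvalb (group means 12.6 in KO and 12.52 in WT) and Zic1 (10.28 and 9.702) were bright in the hippocampus too. Markers that separate hippocampus from cortex did so only in part, since the dentate gyrus marker C1ql2 lay at 9.46 to 11.08 in the hippocampus and 9.07 to 10.13 in the cortex.

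Loss of Grn was measured on every KO array. The Grn probe gave 6.07, 5.87 and 6.13 on the 3 KO arrays and 9.69, 9.49 and 8.76 on the 3 WT arrays. The KO levels were dimmer than all but 1.95 to 12.7% of the probes of their own array, whereas the WT levels exceeded 78.6 to 87% of the probes. The groups did not overlap. The difference was -3.28 ± 0.24 (SE), a 9.70-fold fall with a 95% interval of -3.76 to -2.79 (limma, Benjamini-Hochberg adjusted p = 1e-09). The 3 Het arrays lay between the groups at 7.61, 8.46 and 8.49. The KO signal lay at the dim end of the array, where background limits a fold. With the slide as a fixed block the difference was -2.66 and no probe passed (adjusted p = 0.89 for Grn).

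Apart from Grn, 3 genes passed the threshold at 9 months: Lsm12 rose, and Krt12 and Rapgefl1 fell. They are 3 of the 4 probes, of 12848 tested, with an adjusted p under 0.05 (0.0311% of the probes; 1 higher in KO, 0.00778%, and 3 lower, 0.0233%). Lsm12 encodes an RNA-binding protein of the Sm-like family, Krt12 a keratin best known from the corneal epithelium, and Rapgefl1 a protein related to the exchange factors of Rap proteins. At an unadjusted p under 0.05 stood 247 probes (1.92%), 151 higher (1.18%) and 96 lower (0.747%) in KO. The median difference over all tested probes was 0.00502. The number of probes past the threshold ran from 0 with the slide as a fixed block to 20 with array weights.

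Lsm12 stood at 8.34, 8.46 and 8.39 in KO and at 7.69, 7.59 and 7.59 in WT. The KO arrays lay close together and clear of the WT arrays. The rise was 0.77 ± 0.11, or 1.71-fold (limma, adjusted p = 0.00064). The Het arrays, at 8.27, 8.03 and 8.15, all lay between the groups. Of the other tested Lsm12 probes, 1 differed by 0.25 ± 0.21 and 1 by 0.10 ± 0.18, so the rise was carried by 1 of 3 tested probes. Lsm12 kept its call without each of the 6 arrays in turn, but not with KO replicate 2 and WT replicate 3 both left out (0.72, adjusted p = 0.12) nor without the hippocampus arrays nearer to the cortex profile (0.73, adjusted p = 0.15), nor with the 6 arrays fitted alone (0.77, adjusted p = 0.38).

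Krt12 stood at 7.13, 7.92 and 7.01 in KO and at 9.17, 10.14 and 9.53 in WT. The fall was -2.21 ± 0.41, or 4.63-fold (limma, adjusted p = 0.039). Het arrays gave 9.92, 9.42 and 8.75, the first 2 inside the WT range and the last below it. Those first 2 Het arrays also lay nearer to the cortex profile than to that of the hippocampus. The same probe lay at 9.92 to 10.40 in the WT cortex and at 6.46 to 6.64 in the WT cerebellum, and Krt12 is on the list of cortex markers. Of the 12 tested cortex markers, 11 had a negative difference, with a list median of -0.31 and 4 members lower in every KO array than in any WT array (4.52% of all tested probes did that). The 4 were Krt12, Rorb (-0.34 ± 0.14), Nptx1 (-0.59 ± 0.29) and Myl4. Krt12, Nptx1 and Myl4 lie on chromosome 11, as Grn does. The median was -0.163 without KO replicate 1 and -0.511 without KO replicate 2. Krt12 alone of them passed the test. The mean level of the list was 9.176, 9.781 and 9.315 in KO against 9.704 to 10.16 in WT, and KO replicate 2 was the highest of the KO arrays. The part of cortex admixture in the Krt12 fall was not tested. The call was lost without KO replicate 1, KO replicate 3, WT replicate 2 or WT replicate 3 (adjusted p = 0.45, 0.27, 0.54 and 0.14), and the difference then stayed between -2.25 and -1.95. Without KO replicate 2 and WT replicate 3 together it was -2.53 (adjusted p = 0.18). With the Xist level in place of the labelled sex, which KO replicate 2 contradicts, Krt12 did not pass (-2.30, adjusted p = 0.056).

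Rapgefl1 stood at 10.17, 10.68 and 10.35 in KO and at 11.70, 11.71 and 12.29 in WT. The fall was -1.54 ± 0.29, or 2.91-fold (limma, adjusted p = 0.039). A second tested Rapgefl1 probe differed by -0.18 ± 0.29, so the 2 probes disagree on the size. The call held without KO replicate 2 and was lost without any other of the 6 arrays, with differences from -1.64 to -1.34 and adjusted p from 0.075 to 0.52. It was also lost under median scaling (adjusted p = 0.36) and with the slide as a random block (adjusted p = 0.0545). Without KO replicate 2 and WT replicate 3 together it was -1.52 (adjusted p = 0.49).

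**Figure D1:**
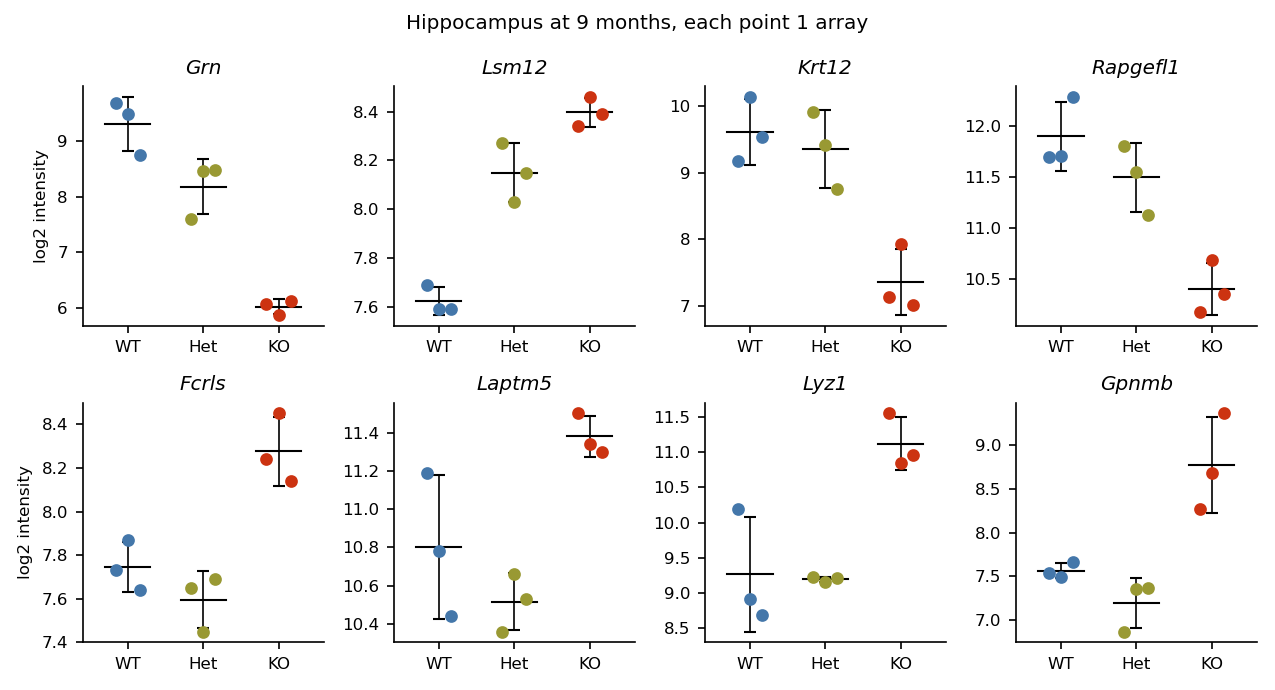
Log2 intensity (vertical axes, each with its own range) of 8 genes on each 9-month hippocampus array, grouped as WT, Het and KO; each point is 1 array, horizontal lines are means and bars SD (n = 3). Grn, Krt12 and Rapgefl1 were lower and Lsm12 higher on all 3 KO arrays than on any WT array, and the 4 genes of the lower row were higher on all 3 KO arrays without passing the test.

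All 4 called genes, Grn included, lie on chromosome 11. In the order of the 773 tested genes of that chromosome (order from RefSeq, GRCm38.p6), Lsm12 stood 6 tested genes before Grn, Krt12 50 and Rapgefl1 56 before it. Of the 773 genes, 38 (4.92%) had an unadjusted p under 0.05, against 228 of 9010 (2.53%) over all chromosomes. The share was 190 of 8237 (2.31%) without chromosome 11, and 161 of 7707 (2.09%) without chromosomes 9 and 11. Chromosome X, with 15 of 298 (5.03%), is part of each of these shares. The next tested genes did not pass the test. Fam171a2, which encodes a membrane protein and is the next tested gene, gave 9.32, 9.28 and 9.03 in KO and 9.81, 10.03 and 9.71 in WT, a difference of -0.61 ± 0.18 (adjusted p = 1). Fzd2, a Wnt receptor and the tested gene after that, gave 7.51, 7.64 and 7.62 in KO and 6.98, 7.25 and 7.16 in WT, a difference of 0.48 ± 0.15 (adjusted p = 1). Fzd2 is among the 17 tested genes of the Wnt list, whose median was 0.01. Gfap, the intermediate filament of astrocytes, stood 8 tested genes after Grn and differed by 0.76 ± 0.24 (adjusted p = 1). Myl4, a myosin light chain and another cortex marker of the list, stood 28 after it and differed by -1.36 ± 0.66. The groups did not overlap for Fam171a2, Fzd2, Gfap or Myl4, and of all tested probes 10.4% did not overlap in one direction or the other. The tested genes between Fzd2 and Gfap differed less, from -0.09 (Gjc1) to 0.12 (Adam11).

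**Figure D2:**
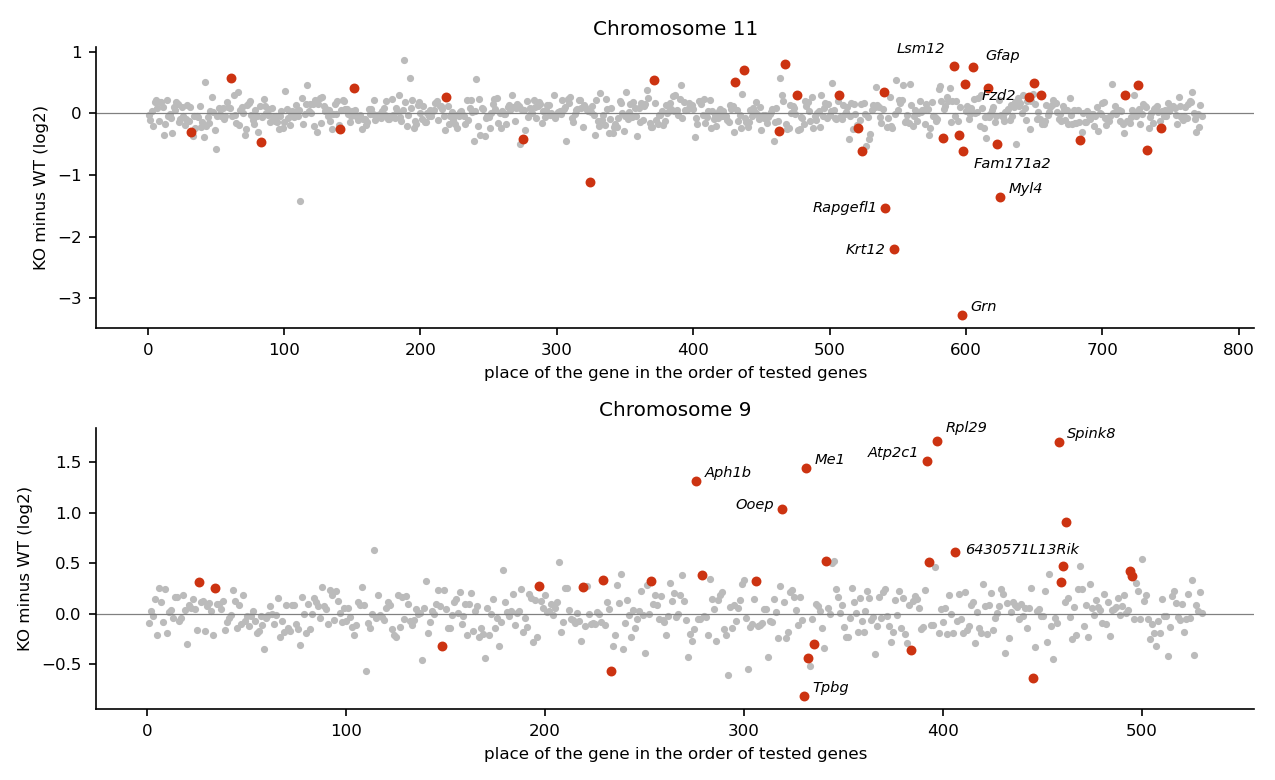
KO minus WT difference in the 9-month hippocampus (vertical axis, log2) for each tested gene, placed by its rank in the order of tested genes along chromosome 11 (upper panel, 773 genes) and chromosome 9 (lower panel, 530 genes). Red points have an unadjusted p under 0.05; on chromosome 11 the 3 lowest are Grn, Krt12 and Rapgefl1, and on chromosome 9 the highest are Rpl29, Spink8 (chosen after its value was seen) and Atp2c1.

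After Lsm12, none of the named higher genes passed the test across all probes. Fcrls, Laptm5, Lyz2 and Gpnmb among them are known from microglia or macrophages. By the naming rule the 10 higher genes were Lsm12, Fcrls, Lyz1, Laptm5, Lyz2, Rpl29, Ooep, Atp2c1, Gpnmb and 6430571L13Rik. Fcrls is a scavenger receptor-like protein of microglia, and Laptm5 a lysosomal membrane protein of blood-derived cells and microglia. Lyz2 is the lysozyme of macrophages, Lyz1 a near copy of it, and Gpnmb a glycoprotein of lysosomes and melanosomes in macrophages. The promoter stretches of Lyz1, Lyz2, Laptm5 and Fcrls hold the 6-base sequence GGAAGT. They are shown because ETS factors such as PU.1 bind sequences of this kind in macrophages and microglia. Each is the 150 bases before the annotated start, 5′ to 3′ on the gene's strand, from RefSeq (GRCm38.p6), and capitals mark GGAAGT or its reverse complement ACTTCC. No other sequence was searched, so further GGAA or TTCC sites carry no capitals.
Lyz1, chr10:117292869-117293018, minus strand: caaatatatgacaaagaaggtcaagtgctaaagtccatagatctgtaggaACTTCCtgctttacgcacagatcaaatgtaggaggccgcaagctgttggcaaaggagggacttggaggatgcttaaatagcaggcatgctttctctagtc
Lyz2, chr10:117282273-117282422, minus strand: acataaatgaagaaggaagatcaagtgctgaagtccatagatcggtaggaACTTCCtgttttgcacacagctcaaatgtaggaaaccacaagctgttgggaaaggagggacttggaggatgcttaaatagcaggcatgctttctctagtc
Laptm5, chr4:130913166-130913315, plus strand: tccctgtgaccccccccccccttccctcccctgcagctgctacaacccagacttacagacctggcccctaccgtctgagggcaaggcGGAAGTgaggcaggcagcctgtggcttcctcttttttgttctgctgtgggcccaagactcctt
Fcrls, chr3:87263525-87263674, minus strand: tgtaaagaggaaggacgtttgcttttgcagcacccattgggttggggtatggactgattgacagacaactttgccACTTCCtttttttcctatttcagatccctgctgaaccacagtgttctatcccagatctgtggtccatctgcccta
The match begins 100 bases before the start in both lysozyme genes, 75 before in Fcrls and 63 before in Laptm5. The Lyz1 and Lyz2 stretches are 88.7% identical over the aligned positions (134 identical, 15 mismatched and 2 with a gap). In windows of 250 bases before to 50 after the start, GGAAGT or ACTTCC occurred in 5 of the 8 named higher genes with a listed promoter (these 4 and Atp2c1), in 1 of the 9 named lower ones and in 23.8% of all 32851 listed promoters. A named gene counted if any of its promoters held a match, whereas the 23.8% counts single promoters, so the shares differ in unit. Lyz1 and Lyz2 count separately here although their stretches are near copies. Gpnmb, also known from macrophages, had no match in its window. The genes were chosen by their differences, so these counts are a description, and a match is no evidence that a factor binds there.

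The lysozymes had the largest differences among the named higher genes. Lyz1 stood at 11.55, 10.85 and 10.96 in KO and at 10.20, 8.92 and 8.69 in WT, a difference of 1.93 ± 0.48, or 3.82-fold (adjusted p = 0.74). Lyz2 stood at 10.27, 9.74 and 9.61 in KO and at 8.86, 7.64 and 7.67 in WT, a difference of 1.90 ± 0.49, or 3.73-fold (adjusted p = 0.84). The KO arrays lay above all WT arrays for both genes, and WT replicate 1 was the highest WT array for both. The transcripts are near-identical copies, so their probes cannot be told apart with certainty and the pair counts as 1 observation. A second tested Lyz2 probe differed by 1.01 ± 0.32. The other Lyz1 probes (hippocampus means 6.33 and 6.23) and a further Lyz2 probe (6.21) were too dim to be tested. In the fit over all 99 arrays, with the animal as a random block, both lysozymes passed the threshold in the hippocampus (adjusted p = 0.0056 for Lyz1 and 0.0088 for Lyz2).

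Gpnmb, on its only tested probe, stood at 8.27, 8.68 and 9.36 in KO and at 7.54, 7.49 and 7.66 in WT. Its other probes (hippocampus means 6.26, 6.29 and 6.21) were too dim to be tested. The KO arrays spread more widely than the WT arrays and lay above all of them. The difference was 1.10 ± 0.31, or 2.15-fold (adjusted p = 1). Fcrls stood at 8.24, 8.45 and 8.14 in KO and at 7.73, 7.87 and 7.64 in WT, a difference of 0.55 ± 0.12 (adjusted p = 0.40). Laptm5 stood at 11.50, 11.34 and 11.30 in KO and at 11.19, 10.78 and 10.44 in WT, a difference of 0.57 ± 0.14 (adjusted p = 0.74). For both genes the groups did not overlap, although WT replicate 1 came near the KO arrays for Laptm5. Without WT replicate 1 the Laptm5 difference was 0.76 and passed the threshold (adjusted p = 0.033).

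Gene lists were described by their counts and medians. Probes were tested where their mean over the hippocampus arrays was above the median, which kept 28 of 39 activated microglia genes on the array, 15 of 18 homeostatic, 8 of 20 complement and 50 of 56 lysosomal ones. Lists count each gene by its brightest tested probe, and no listed member other than Krt12 passed the test. On the list of activated microglia, 24 of 28 tested members had a positive difference, with a median of 0.26, and 12 of the 28 were higher in every KO array than in any WT array, beside 754 of 12848 probes (5.87%) over the whole array. After the lysozymes and Gpnmb came the tetraspanin Cd63 (0.61 ± 0.19) and the NADPH oxidase subunit Cyba (0.61 ± 0.20). The 3 tested Cd63 probes gave 0.58 to 0.64. Tyrobp, a signalling adaptor, and its partner receptor Trem2, both named after their values were seen, differed by 0.58 ± 0.20 and 0.54 ± 0.22. Mean levels of the list were 9.533, 9.377 and 9.478 in KO and 9.276, 8.964 and 8.889 in WT. Without WT replicate 1, the highest WT array, the list's median was 0.44. In whole tissue, more microglia and more RNA per microglial cell cannot be told apart.

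Of the homeostatic markers of microglia, 15 of 18 on the array were tested. Of these 15 tested members 10 were positive, and the median was 0.07 (-0.00501 without KO replicate 2 and WT replicate 3). Fcrls and Laptm5 were the only members clear of the WT arrays, beside 5.87% of all tested probes with every KO array above every WT array. P2ry12, Cx3cr1 and Tmem119 were chosen after their values were seen. P2ry12, a purinergic receptor of resting microglia, spread from 7.89 to 9.43 in KO and from 8.31 to 8.69 in WT (difference -0.15 ± 0.56). Cx3cr1, the fractalkine receptor, lay at 9.09 to 9.32 in KO and 9.13 to 9.25 in WT (0.13 ± 0.16). Tmem119 differed by -0.12 ± 0.18. The 3 tested markers of perivascular macrophages and monocytes were Mrc1 (0.42 ± 0.32), F13a1 (0.32 ± 0.31) and Cbr2 (-0.05 ± 0.18), all between 6.42 and 7.71 in the group means. The part of such cells in the macrophage genes was not tested.

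All 8 tested complement genes had a positive difference, with a median of 0.47 (0.311 without WT replicate 3), and 5 of them were higher in every KO array than in any WT array (5.87% of all tested probes were). C4b, which encodes the complement component cleaved early in the classical pathway, stood at 9.86, 9.28 and 9.85 in KO and at 9.26, 8.72 and 8.32 in WT, a difference of 0.88 ± 0.27. C1qc, a chain of the C1q recognition complex made by microglia, stood at 10.16, 10.26 and 10.28 in KO and at 9.97, 9.74 and 9.58 in WT, a difference of 0.47 ± 0.15. The other C1q chains differed by 0.39 ± 0.16 (C1qa) and 0.50 ± 0.24 (C1qb), and clusterin (Clu) by 0.32 ± 0.14. C1qb was the only one of these whose groups overlapped.

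Of 50 tested lysosomal genes 31 were positive, the median was 0.08, 7 were higher in every KO array and 2 lower, beside 5.87% and 4.52% of all tested probes. The median was 0.175 without WT replicate 1 and 0.0288 without WT replicate 3. Laptm5 and Cd63 led the list, followed by the lysosomal mannosidase Man2b1 (0.42 ± 0.16), the cathepsin Ctsh (0.53 ± 0.22) and the glucuronidase Gusb (0.37 ± 0.17). The largest difference on the list went the other way, in the cathepsin Ctsc (-1.10 ± 0.53, chosen after its value was seen), whose groups overlapped. Under median scaling of the arrays the list median was -0.04, beside a median of -0.0808 over all tested probes, so its sign depends on the scaling. The known partners of progranulin did not pass the test: Psap, which encodes prosaposin, differed by 0.16 ± 0.12, Sort1, which encodes sortilin, by -0.14 ± 0.12, and Tmem106b, a lysosomal membrane protein linked to the risk of frontotemporal dementia, by -0.24 ± 0.32. The median of the 8 tested genes of that list was 0.00468. Autophagy genes had a median of -0.04 over 21 members, none clear of the other group.

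Astrocyte genes of the reactive state had a median of 0.27 over 12 tested members (0.179 without KO replicate 3), 4 of them higher in every KO array, beside 5.87% of all tested probes. Gfap stood at 9.67, 9.07 and 9.44 in KO and at 9.00, 8.17 and 8.72 in WT, so KO replicate 2 came close to WT replicate 1. Osmr, a cytokine receptor subunit, differed by 0.34 ± 0.14, and the list also holds C4b. General astrocyte markers had a median of 0.13 over 15 members. Antigen presentation and interferon genes had a median of 0.15 over 20 members, led by B2m, which encodes beta-2-microglobulin of the class I complex, whose 2 tested probes differed by 0.79 ± 0.24 and 0.76 ± 0.27. Cytokines and targets of NF-kB had a median of 0.13 over 11 members, led by the adaptor Myd88 (0.42 ± 0.17).

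The 18 neuronal genes had a median of -0.04, with Thy1 at -0.23 ± 0.12 as the member of smallest p, and the 14 myelin genes had a median of -0.10. Synaptic glutamate genes had a median of -0.05 over 9 members and respiratory chain genes -0.02 over 24. Cholesterol synthesis genes had a median of -0.02 over 15.

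**Figure D3:**
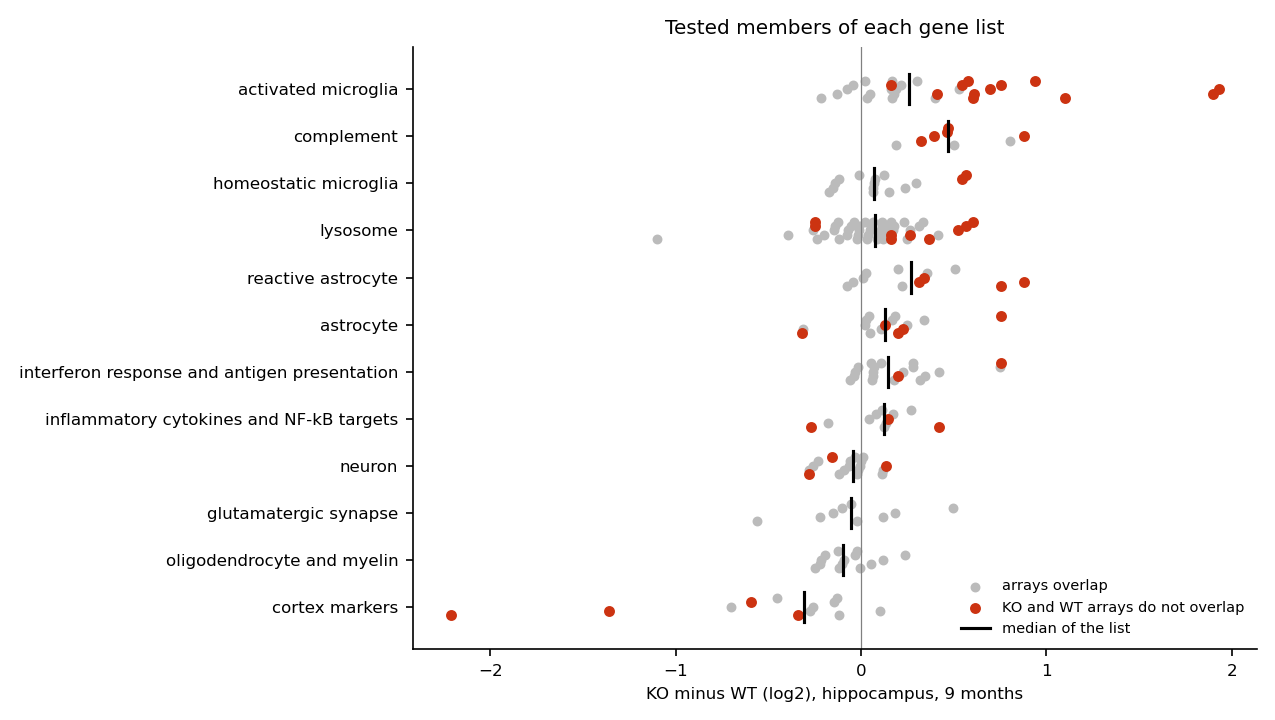
KO minus WT differences in the 9-month hippocampus (horizontal axis, log2) for the tested members of 12 gene lists, 1 point per gene and a black bar at each list's median. Red points are genes whose 3 KO arrays do not overlap the 3 WT arrays; the medians run from -0.31 for cortex markers to 0.47 for complement.

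On the lower side, the 10 named genes were Grn, Krt12, Rapgefl1, Eif2s3y, Fam171a2, Tpbg, 6430548M08Rik, Crtc1, Crnkl1 and Tle4, of which the first 3 passed. Eif2s3y, a translation factor gene on the Y chromosome, gave 8.82, 6.11 and 5.91 in KO and 9.66, 9.56 and 10.10 in WT, so the 2 KO arrays of female pattern were the low ones. Tpbg, which encodes a membrane glycoprotein that dampens Wnt signalling, gave 9.53, 9.65 and 9.30 in KO and 10.25, 10.60 and 10.14 in WT (-0.82 ± 0.25, adjusted p = 1). Crtc1, a coactivator of CREB in neurons, gave 8.85, 8.58 and 8.58 in KO and 9.10, 9.06 and 9.23 in WT (-0.45 ± 0.15, adjusted p = 1). The splicing protein gene Crnkl1 differed by -0.43 ± 0.15, 6430548M08Rik by -0.63 ± 0.20, and the corepressor gene Tle4 by -0.50 ± 0.18. Another tested Tle4 probe differed by -0.23 ± 0.17. The groups did not overlap for any of the 10 lower genes, beside 4.52% of all tested probes with every KO array below every WT array. The 10 genes were chosen by their p in this same comparison, so their lack of overlap is a description only.

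Of the 20 named genes, 5 lie on chromosome 11 and 5 on chromosome 9: Rpl29, Ooep, Atp2c1, 6430571L13Rik and Tpbg. Chromosome 9 held 29 of 530 tested genes (5.47%) with an unadjusted p under 0.05, beside 228 of 9010 (2.53%) over all chromosomes. No gene of chromosome 9 passed the test. Rpl29, which encodes a ribosomal protein, gave 8.11, 8.99 and 8.99 in KO, 6.33, 6.70 and 8.14 in WT and 7.89, 6.61 and 8.29 in Het (1.71 ± 0.45, adjusted p = 0.84). Atp2c1, a Golgi calcium and manganese pump, gave 8.44, 9.32 and 9.27 in KO, 7.0, 6.74 and 8.70 in WT and 8.66, 6.96 and 8.38 in Het (1.51 ± 0.41, adjusted p = 1). WT replicates 1 and 2 and Het replicate 2 were low for both genes, and WT replicate 3, the other Het arrays and all KO arrays were high. The same animals were low and high in cortex and cerebellum, where Rpl29 lay at 6.60 to 6.77 in those 3 animals and at 7.95 to 9.05 in the other 6. Aph1b, a gamma-secretase subunit, and Me1, the cytosolic malic enzyme, both chosen after their values were seen, also took a high or a low level by animal. Me1 was at 7.51 to 8.33 in the KO hippocampus, at 7.77 in Het replicate 3 and at 6.19 to 6.84 in the other 5 arrays. Ooep, known from the oocyte, gave 7.52, 6.94 and 7.56 in KO against 6.30 to 6.48 in WT, and Het replicate 3, at 6.99, was the only Het array as high. For several of these genes a second tested probe moved less or the other way: 0.44 ± 0.20 for Rpl29, 0.27 ± 0.20 for Atp2c1 and -0.43 ± 0.31 for Me1.

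**Figure D4:**
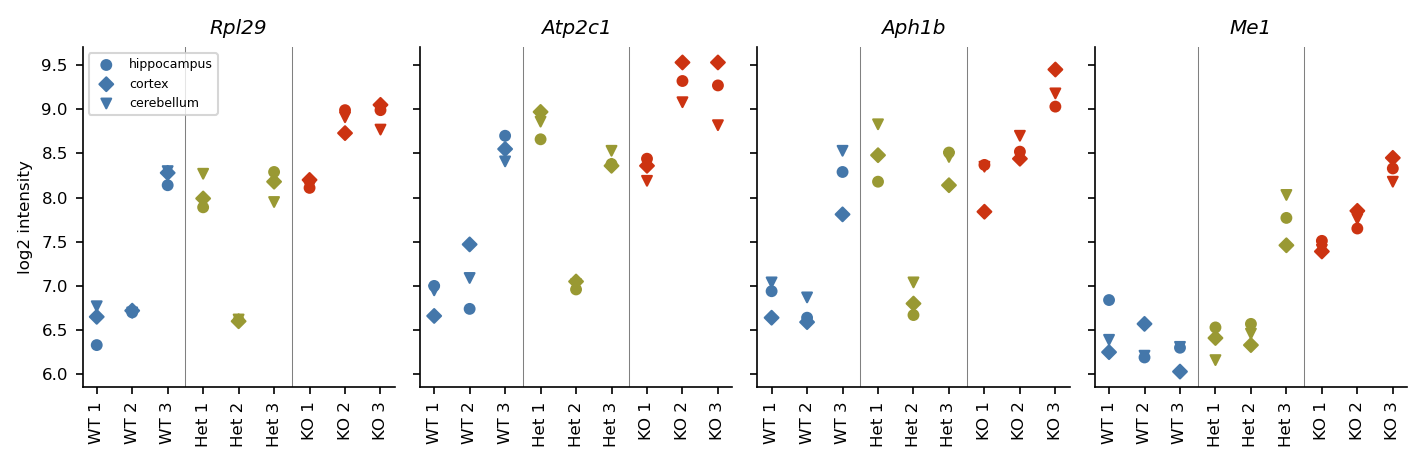
Log2 intensity (vertical axis) of 4 chromosome 9 genes in each of the 9 animals of 9 months (3 WT, 3 Het, 3 KO); circles are hippocampus, diamonds cortex and triangles cerebellum. For Rpl29, Atp2c1 and Aph1b, WT 1, WT 2 and Het 2 are low in all 3 regions, and for Me1 the KO animals and Het 3 are high in all 3 regions.

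KO and Het were both set against the same 3 WT arrays, so their differences are not independent. No probe passed in Het against WT (limma, 0 of 12848, 419 at an unadjusted p under 0.05). Grn differed by -1.13 ± 0.23 and Lsm12 by 0.52 ± 0.11 (limma, adjusted p = 0.20 for both). Neither lysozyme was higher in Het, with Lyz1 at 9.23, 9.16 and 9.21 and a difference from WT of -0.07 ± 0.48. Gpnmb in Het lay at 6.87 to 7.37, below the 3 WT arrays. Against Het in place of WT, 3 probes passed in KO (0.0233%): Grn fell by 2.15 ± 0.24, Laptm5 rose by 0.85 ± 0.14 (adjusted p = 0.015) and Fcrls rose by 0.70 ± 0.12 (adjusted p = 0.024). Gpnmb (1.47 ± 0.31), C4b (1.28 ± 0.27) and Krt12 (-1.96 ± 0.41) had adjusted p = 0.087 there, and Lsm12 differed by 0.25 ± 0.11. Het replicates 1 and 2 lay nearer to the cortex profile (correlations 0.92 and 0.952) than to that of the hippocampus (0.903 and 0.946). The homeostatic microglia list holds Laptm5 and Fcrls. Its mean levels were 8.249, 8.199 and 8.286 in Het, below the 8.348 to 8.59 of WT. The part of either in the calls against Het was not tested.

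At earlier ages other animals were used, 5 KO and 5 WT at 2 months and 3 KO and 2 WT at 6 months. No slide held both 2-month and later arrays. Median raw intensities of the 2-month KO and WT hippocampus arrays were 81 to 94.2, against 203.6 to 257.8 at 9 months. The age of 2 months thus cannot be told apart from its slides and their lower brightness. Both 6-month WT animals were labelled female, whereas the 9-month WT animals were labelled male. At 2 months 7 probes passed (0.0545%): Lsm12, Fzd2 and Nle1 rose and Grn, Rapgefl1, Krt12 and Mrps23 fell, all of them on chromosome 11. Lsm12 differed by 0.67 ± 0.08, Rapgefl1 by -1.51 ± 0.22 and Krt12 by -1.90 ± 0.31, beside 0.77, -1.54 and -2.21 at 9 months. Fzd2 rose by 0.92 ± 0.12 and Nle1, a ribosome assembly factor, by 0.87 ± 0.13, against 0.48 ± 0.15 and 0.51 ± 0.17 at 9 months, where neither passed. Mrps23, a mitochondrial ribosomal protein gene, fell by 0.68 ± 0.12 at 2 months, and at 9 months its difference was -0.17 ± 0.16. At 6 months Grn alone passed (1 of 12848 probes, 0.00778%; -3.29 ± 0.27), and Lsm12 was at 8.25 to 8.54 in KO and at 7.69 and 7.85 in WT (0.62 ± 0.12, adjusted p = 0.099).

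No difference between ages passed the test for the lysozymes, Gpnmb or Laptm5. Lyz1 differed by 1.03 ± 0.37 at 2 months, 0.38 ± 0.56 at 6 months and 1.93 ± 0.48 at 9 months, and Gpnmb by 0.37 ± 0.24, 0.74 ± 0.36 and 1.10 ± 0.31. At 2 months the lowest, median and highest Lyz1 levels were 9.51, 10.09 and 11.47 in KO and 8.76, 9.20 and 9.57 in WT, so the groups overlapped. The 9-month minus 2-month difference was 0.905 ± 0.606 for Lyz1, 0.73 ± 0.39 for Gpnmb and 0.35 ± 0.18 for Laptm5, each with an adjusted p of 1. Over all probes, 0 of 12848 passed in the test of 9 against 2 months (290 at an unadjusted p under 0.05) and 0 in that of 9 against 6 months (963). Rpl29 differed by 0.11 ± 0.34 at 2 months and 0.00 ± 0.51 at 6 months, and its 9-month minus 2-month difference was 1.61 ± 0.56 (adjusted p = 1).

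**Figure D5:**
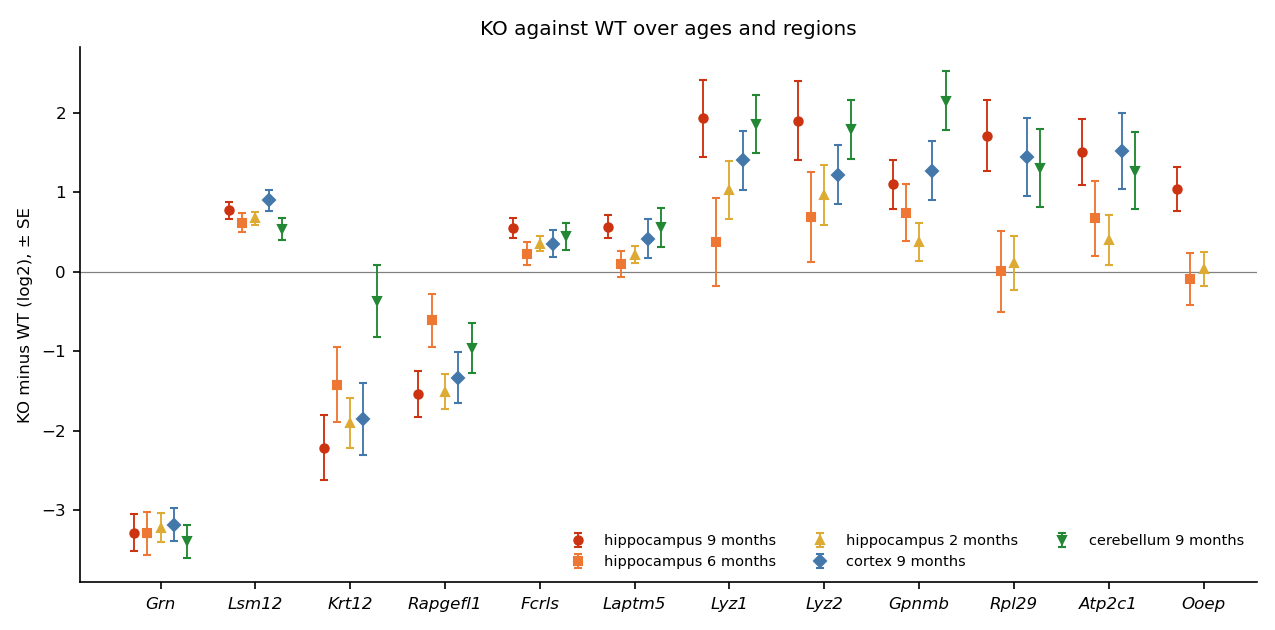
KO minus WT difference (vertical axis, log2, bars SE) of 12 genes in the hippocampus at 9, 6 and 2 months and in the cortex and cerebellum at 9 months; Ooep was not tested in the fit that gives cortex and cerebellum. Grn lies between -3.39 and -3.18 and Lsm12 between 0.54 and 0.90 in these comparisons, whereas Krt12 runs from -2.21 in the 9-month hippocampus to -0.37 in the cerebellum.

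The same 6 animals gave cortex and cerebellum. In the fit over all 99 arrays, 6 probes passed in the hippocampus (0.0467%; Grn, Lsm12, Lyz1, Lyz2, Krt12 and Rapgefl1), 2 in the cortex (0.0156%; Grn and Lsm12) and 6 in the cerebellum (0.0467%; Grn, Gpnmb, Lyz1, Gfap, Lyz2 and 1 probe without a gene symbol). Lyz1 differed by 1.93 ± 0.37 in the hippocampus, 1.40 ± 0.37 in the cortex and 1.86 ± 0.37 in the cerebellum. Gpnmb differed by 1.10 ± 0.37, 1.27 ± 0.37 and 2.15 ± 0.37 in the same order. C4b differed by 0.880 ± 0.235, 0.884 ± 0.234 and 0.878 ± 0.235. Rapgefl1 differed by -1.54 ± 0.32, -1.33 ± 0.32 and -0.96 ± 0.32, and Krt12 by -2.21 ± 0.45, -1.85 ± 0.45 and -0.37 ± 0.45, the last in a tissue where its WT level was 6.46 to 6.64. The difference between hippocampus and cerebellum was -1.84 ± 0.62 for Krt12 and -1.04 ± 0.51 for Gpnmb, both with an adjusted p of 1. Over all probes, 0 of 12848 passed in the test of hippocampus against cortex (79 at an unadjusted p under 0.05, 0.615%). In that of hippocampus against cerebellum 0 passed (147, 1.14%). Some arrays of this fit went against their region label. The 2-month cerebellum arrays of Het replicate 4 and KO replicate 1 correlated with the cortex profile at 0.873 and 0.88. With the cerebellum profile they correlated at 0.427 and 0.522. Such arrays enter the shared spread, and their part in these counts was not tested.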

How the data were processed

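RNA from cortex, hippocampus and cerebellum was measured on 99 Illumina bead arrays. The deposited table holds raw intensity per probe on a linear scale, exported with BeadStudio per the submitters' processing notes, with no background or detection columns. The authors' deposited series values are log2 intensities that equal the quantile-normalised log2 of that table (largest difference 4.97e-14), and served as an alternative. Here intensities were corrected with normexp (offset 50), log2-transformed and quantile-normalised over all arrays. Of 25697 probes, the 12848 above the median of the probe means were tested, and 23978 have a gene symbol in the platform annotation (23962 matched to RefSeq, GRCm38.p6). A linear model was fitted with limma 3.58.1 (R 4.3.3) over the 32 hippocampus arrays, with 9 genotype-by-age groups and labelled sex, eBayes with trend, 22 residual degrees of freedom and Benjamini-Hochberg adjustment over all tested probes at 0.05. Group differences are therefore adjusted for labelled sex and need not equal the difference of the group means. Regions were compared in a fit over all 99 arrays with the animal as a random block (consensus correlation 0.0573, statmod 1.5.0). The number of arrays limits the precision, and each replicate is an animal number in the labels.

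Named genes are Grn, the 10 genes of smallest p in each direction at 9 months, up to 4 in each direction past the threshold in other comparisons, and up to 5 members of each list by p; exceptions are marked. A gene with several probes is named by its probe of smallest p, and counted in a list by its brightest probe. Members and lists were chosen with earlier results of these data known. The model was tested on simulated data. The alternatives were other background corrections, scalings, probe filters, covariates (the Xist level in place of labelled sex among them), sets of arrays, slide and replicate blocks, array weights and leaving out arrays. No 2 arrays were identical.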

Additional observations from a re-analysis of the deposited data

Results flagged for a closer look

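Of the 54 groups of 5 arrays examined (KO and WT hippocampus at 2 months, for the genes followed at that age), 2 held an array far from the others by Dixon's ratio, and chance flags about 1 in 20 groups. In KO at 2 months the highest 6430571L13Rik array stood at 8.16, with the next at 7.95. The highest Fam171a2 array stood at 9.80, with the next at 9.35. No difference between ages or regions of a named gene passed its test.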

How the results depend on the processing

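The 42 results were compared over 23 alternatives (20 planned, 3 chosen after seeing the data). None of the 30 gene results changed its sign where it was tested. Of the list medians, that of lysosomal genes ran from 0.175 down to -0.0438 and that of homeostatic microglia from 0.254 down to -0.00501. The number of probes past the threshold in KO against WT was 4, ran from 2 to 4 when each array was left out, and was 2 with the stricter probe filter (Krt12 and Rapgefl1, since Grn and Lsm12 were not tested there), 0 with the slide as a fixed block (Grn -2.66, adjusted p = 0.89), 20 with array weights (14 higher, 6 lower), 2 with only the 6 arrays (Grn and Tmem87a), 1 with only the 9 arrays of that age and 1 without KO replicate 2 and WT replicate 3 together. With the replicate number as a block it was 2: Krt12 (adjusted p = 0.099) and Rapgefl1 (adjusted p = 0.053) no longer passed. In a check of these numbers, same-numbered KO and WT arrays correlated at 0.264, 0.0229 and 0.0623, and differently numbered ones at -0.193 to 0.0971. That measure is not the correlation of whole profiles, which was 0.982 to 0.993. The replicate number is the order of the animal numbers within a group, and the labels give no pairing of KO with WT animals. Whether same-numbered animals share anything more than the number was not tested. Het against WT, with 0 probes, gave 9 with median scaling (8 higher, 1 lower), 1 with array weights, 1 without those 2 arrays together, and 0 to 1 when each array was left out. The 9 minus 6 month difference, with 0, gave 3 with median scaling, 1 with array weights and 1 with the replicate block. Left-out arrays moved Grn from -3.55 to -3.09. The causes were not tested. Dim probes carry little signal over background, which limits Grn in KO.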

Other observations

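Of the 11 tested genes of striatum and hypothalamus 8 had a positive difference, with a median of 0.13, and 4 were higher in every KO array, beside 5.87% of all tested probes. The hypothalamic peptide gene Pmch, which encodes melanin-concentrating hormone, gave 8.40, 10.70 and 9.97 in KO and 7.17, 7.69 and 6.41 in WT, a difference of 2.05 ± 1.16. The vasopressin gene Avp differed by 1.35 ± 0.79, and the dopamine receptor gene Drd2, chosen after its value was seen, by -0.22 ± 0.47. The 12 thalamus genes had a median of 0.07, with 7 positive. Of the 12 tested genes of meninges and fibroblasts 11 were positive, with a median of 0.22, and 4 were higher in every KO array, against the same 5.87%. Ptgds, a prostaglandin synthase of the meninges, differed by 0.66 ± 0.36. None of these passed the test. The 15 immediate early genes had a median of 0.19, and none had groups clear of each other.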
